A study of Mus musculus with 12 samples.

Results

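A set of 10 genes of the extracellular matrix and its processing were followed through mouse embryonic stem (ES) cells without Dicer, the nuclease that makes microRNAs. They were the small leucine-rich proteoglycans Dcn (decorin), Bgn (biglycan) and Lum (lumican), the lysyl oxidases Lox, Loxl1 and Loxl2, the matrix glycoproteins Fn1 (fibronectin), Thbs1 (thrombospondin-1) and Postn (periostin), and the serine protease gene Prss23. The members were every probe of the array that carried one of these 10 gene names, 18 of 41174 distinct probes (10 of 27670 gene names), and each probe was kept apart. The genes were chosen with their ratios in all 3 comparisons below already known, so their values are a description and carry no test of their own. A probe passed the filter on dim probes when the scanner software found it well above background on both dye-swapped arrays for at least 1 RNA; 14 of the 18 member probes passed, of 28818 in all, and 9 of the 10 genes had a passing probe. A probe that passed only through the cells in which it was bright had to differ between cells, so counts over the passing probes are no evidence about the 10 genes.

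The cells were Dicer-null ES cells of clones 27G5 and 27H10 labelled as overexpressing Dnmt1, the same clones labelled as overexpressing Dnmt3a and Dnmt3b, the 2 Dicer-null clones themselves, and wild-type ES cells. Dnmt1 is the DNA methyltransferase that copies methylation at replication, and Dnmt3a and Dnmt3b set it on new sites. All were grown per the labels on gelatin with leukemia inhibitory factor and no added treatment, and every labelled line kept the Dicer deletion of its parent clone. Each of 12 Agilent 2-colour arrays held 2 RNAs, and each pairing was hybridised on 2 arrays with the dyes exchanged, which gave 1 ratio per clone for Dicer-null over wild type, for the Dnmt1-labelled line over its Dicer-null parent and for the Dnmt3a,3b-labelled line over its Dicer-null parent. The labels name 1 wild-type RNA, so the spread of wild-type cells was not measured, and the Dicer-null RNA is the numerator of the first comparison and the denominator of the other 2.

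The median spot signal of an array was 112 to 135 in green and 234 to 334 in red, and the share of spots well above background was 62.1% to 68.6% in green and 64.5% to 69.1% in red. Dicer1 was at -4.07 ± 0.08 (log2, SD over 2 clones) in Dicer-null over wild-type cells at 1 probe and at -0.53 ± 0.04 at its brighter probe. No probe of Dnmt1, Dnmt3a or Dnmt3b was called higher in a line labelled as overexpressing it: Dnmt1 was at 0.27 ± 0.23 in the Dnmt1-labelled line over its parent, and in the Dnmt3a,3b-labelled line Dnmt3b was at -1.04 ± 0.59 and the brightest Dnmt3a probe at -1.03 ± 0.92. The lines are therefore named by their labels throughout. The labelled lines of 27G5 shared 1 slide, those of 27H10 a second slide, and all wild-type hybridisations a further slide, so slide and clone cannot be told apart for the labelled lines. The ratios of the 2 dye-swapped arrays correlated at r = 0.676 to 0.910 across probes in 5 pairings and at r = 0.378 for the Dnmt3a,3b-labelled line of clone 27G5.

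Small leucine-rich proteoglycans bind collagen fibrils and control their spacing, and decorin and biglycan also bind growth factors of the TGF-beta family. Lysyl oxidases oxidise lysines of collagen and elastin so that the fibres can be cross-linked. Fibronectin is the scaffold on which cells assemble matrix, thrombospondin-1 and periostin are matricellular proteins that act on cells and on matrix assembly, and Prss23 is a secreted serine protease.

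Each ratio rests on the 60 bases of its probe, and 6 probes with at least 1 reading frame free of stop codons before the capitals are shown, to tell which stretch of each transcript was measured, 5′ to 3′, as the chip files of the overexpression-labelled arrays give them with positions on build mm7. The Dcn probe ends with the last codons of the gene, and its capitals mark the stop codon. The Fn1 probe is the one spotted 10 times on the array. The files place the ends of this probe 2238 bases apart and those of the second Thbs1 probe 181 bases apart, more than the 60 bases of a probe.
Dcn A_51_P334104 (chr10:97080086-97080145, plus strand): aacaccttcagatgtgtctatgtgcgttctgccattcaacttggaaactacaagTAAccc
Loxl1 A_51_P304239 (chr9:58319258-58319317, minus strand): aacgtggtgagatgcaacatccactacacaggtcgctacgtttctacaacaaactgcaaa
Loxl2 A_51_P275949 (chr14:64336628-64336687, plus strand): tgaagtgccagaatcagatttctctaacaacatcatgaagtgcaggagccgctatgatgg
Fn1 A_51_P100856 (chr1:71832689-71834926, minus strand): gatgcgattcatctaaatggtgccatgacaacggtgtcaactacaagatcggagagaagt
Thbs1 A_52_P337086 (chr2:117863442-117863501, plus strand): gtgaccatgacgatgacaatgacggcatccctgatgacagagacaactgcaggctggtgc
Thbs1 A_52_P337092 (chr2:117861824-117862004, plus strand): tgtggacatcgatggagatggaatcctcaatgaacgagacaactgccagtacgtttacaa

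In Dicer-null cells, Dcn was higher than in wild-type cells and the lysyl oxidases, Thbs1, Postn and Prss23 were lower. In both labelled lines, Dcn was lower than in the Dicer-null parents and Loxl1, Thbs1 and Prss23 were higher, as was Loxl2 in the Dnmt3a,3b-labelled line. Bgn and Fn1 were not called in any comparison, and Lum did not pass the filter. All ratios are given on the log2 scale, and a probe was called at an adjusted p under 0.05 in limma over all 28818 probes.

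In the comparison of Dicer-null with wild-type cells, 1 of the 14 passing member probes was called higher and 8 lower, while 20.0% of all probes tested were called higher and 19.8% lower. For the Dnmt1-labelled line over its parent, 4 were called higher, against 11.6% of all probes, and 1 lower, against 11.2%. For the Dnmt3a,3b-labelled line over its parent, 6 were called higher, against 10.8% of all probes, and 1 lower, against 11.2%. Since the genes were chosen on these comparisons, nothing is read from these shares. Many calls were lost when 1 clone was left out. With 1 clone left, the p-value of a comparison cannot cover the spread between clones in it. Calls kept or lost without a clone, here and below, therefore do not measure how well the clones agreed. A call could be lost at similar ratios. Dcn in the Dnmt3a,3b-labelled line over its parent was such a case, at -2.41 in clone 27H10 and -2.62 in clone 27G5.

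**Figure D1:**
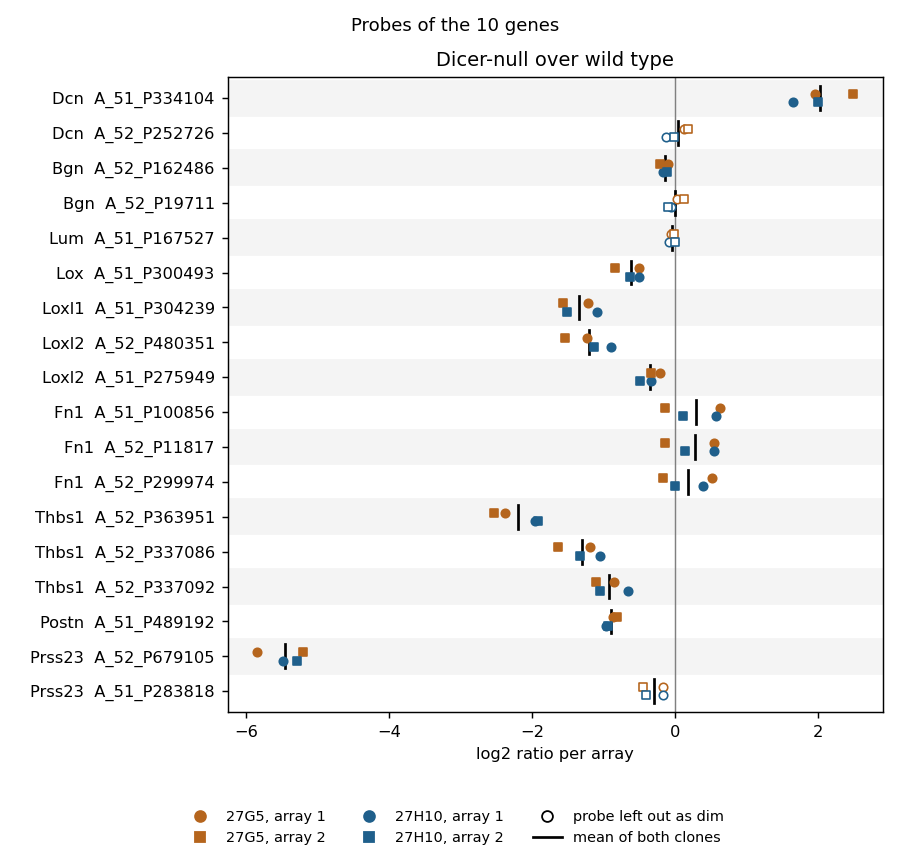
Log2 ratio of Dicer-null over wild-type cells on each of 4 arrays (x axis) for the 18 member probes (rows). Circles and squares are the 2 dye orientations, colours the clones, open symbols probes left out as dim, and the bar is the mean of both clones. Dcn A_51_P334104 lies between 1.65 and 2.49 and Prss23 A_52_P679105 between -5.85 and -5.20.

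Decorin was the member with the opposite course to most of the others. Its probe A_51_P334104 gave 1.95 and 2.49 on the arrays of clone 27G5 and 1.65 and 2.00 on those of clone 27H10 for Dicer-null over wild type. All 4 values were positive, with a mean of 2.02 ± 0.28 (SD, n = 2 clones), which is a 4.06-fold higher signal in Dicer-null cells. It was the 200th highest mean ratio of the 28818 probes.

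In the Dnmt1-labelled line over its Dicer-null parent the same Dcn probe gave -2.59 and -2.23 in 27G5 cells, and -2.75 and -2.25 in 27H10 cells. In the Dnmt3a,3b-labelled line over its parent it gave -2.99 and -2.25 in 27G5 cells, and -2.60 and -2.22 in 27H10 cells. All 8 values were negative, and the clone means did not differ by more than 0.21 in either line. The mean was -2.45 ± 0.06 in the Dnmt1-labelled line and -2.52 ± 0.15 in the Dnmt3a,3b-labelled line.

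The Dcn signal came close to the detection limit in the labelled lines: it was well above background on 1 of 4 arrays in the Dnmt1-labelled line and on 3 of 4 in the Dnmt3a,3b-labelled line, and on 4 of 4 arrays in Dicer-null and in wild-type cells. The size of the ratio therefore depended on how background was treated, and over 5 other scalings it ran from -4.40 to -2.53 in the Dnmt1-labelled line and from -4.23 to -2.54 in the Dnmt3a,3b-labelled line. Adding the ratios of the same clone put Dcn at -0.43 ± 0.34 in the Dnmt1-labelled line and at -0.49 ± 0.13 in the Dnmt3a,3b-labelled line relative to wild type, as sums of separate arrays that share the Dicer-null RNA. The second Dcn probe, A_52_P252726, at chr10:97043200-97043259, was not well above background on any array and gave means of -0.03 to 0.04.

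Biglycan, the X-linked relative of decorin, did not follow it. Its probe A_52_P162486 gave -0.10, -0.21, -0.17 and -0.11 on the 4 arrays of Dicer-null over wild type, with a mean of -0.15 ± 0.01. In the labelled lines its means were 0.07 ± 0.11 for Dnmt1 and 0.04 ± 0.08 for Dnmt3a,3b over the parents, and none of these 3 was called. The signal was near the background, at 1 or 2 of 4 arrays well above it in the labelled lines. The second Bgn probe and the only Lum probe did not pass the filter, and their means lay between -0.14 and 0.00 in the 3 comparisons. Lum was well above background on 1 of 4 arrays in the Dicer-null parents hybridised with the Dnmt1-labelled line, and on no other array in any cells.

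**Figure D2:**
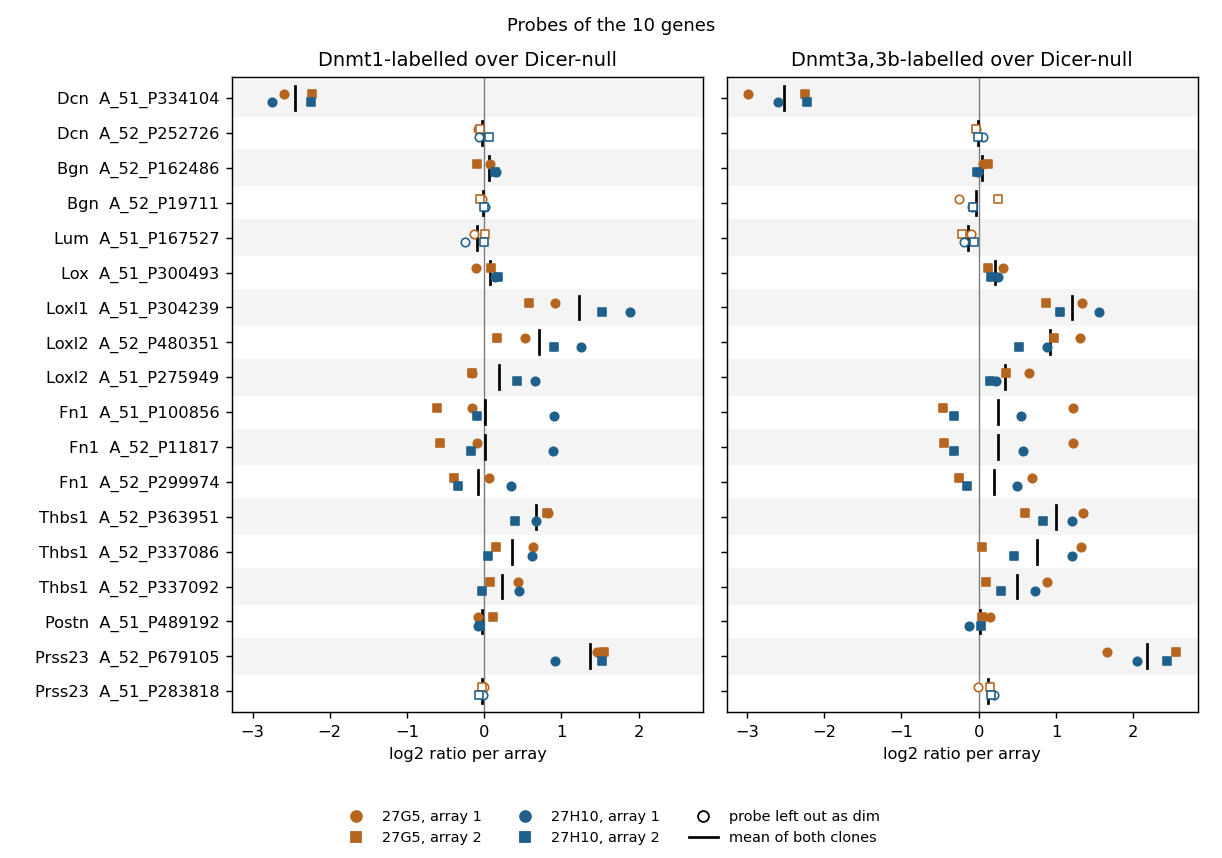
Log2 ratio of the Dnmt1-labelled line (left) and of the Dnmt3a,3b-labelled line (right) over the Dicer-null parent on each of 4 arrays (x axes) for the 18 member probes (rows), with symbols for dye orientation, colours for clones, open symbols for dim probes and bars for the mean of both clones. Dcn A_51_P334104 lies below -2.2 on all 8 arrays, Prss23 A_52_P679105 between 0.92 and 2.56, and the Fn1 probes lie on both sides of 0 in both panels.

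The 3 lysyl oxidases were lower in Dicer-null cells. Loxl1, which acts mainly on elastic fibres, gave -1.22 and -1.57 in 27G5 cells, and -1.09 and -1.52 in 27H10 cells, with a mean of -1.35 ± 0.06. Loxl2, an enzyme of basement membranes and collagen, gave -1.23 and -1.54 in 27G5 cells, and -0.89 and -1.13 in 27H10 cells at its brighter probe, A_52_P480351, with a mean of -1.20 ± 0.26. Lox itself gave -0.50, -0.84, -0.51 and -0.64 (mean -0.62 ± 0.07). It was well above background on 0 of 4 arrays of this comparison in Dicer-null cells, against 3 of 4 in wild-type cells. Averaged over the 4 arrays it was at least 1.46-fold lower, but on array 1 of clone 27G5 neither RNA was well above background. For every "at least" the dim channel was raised to the lowest signal well above background on its array. All 12 values of these 3 probes were negative.

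In the labelled lines Loxl1 was higher than in the Dicer-null parents. The Dnmt1-labelled line gave 0.91 and 0.58 in 27G5 cells, and 1.88 and 1.52 in 27H10 cells, with a mean of 1.22 ± 0.68. The Dnmt3a,3b-labelled line gave 1.34 and 0.87 in 27G5 cells, and 1.56 and 1.05 in 27H10 cells, with a mean of 1.20 ± 0.14. The array values of the clones overlapped in the Dnmt3a,3b-labelled line alone. The arrays of a clone hold the same RNAs on 1 slide, so their overlap does not measure a difference between clones. Relative to wild type the sums were -0.65 and 0.40 for the Dnmt1-labelled line and -0.29 and 0.00 for the Dnmt3a,3b-labelled line, clone 27G5 before 27H10 in each.

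Loxl2 depended on the probe. At its brighter probe the Dnmt1-labelled line was at 0.35 in clone 27G5 and 1.08 in clone 27H10 (mean 0.71 ± 0.52, not called), and the Dnmt3a,3b-labelled line at 1.14 and 0.71 (0.92 ± 0.31, called). The probe A_51_P275949, whose sequence is shown above, gave -0.35 ± 0.09 for Dicer-null over wild type, 0.19 ± 0.49 for the Dnmt1-labelled and 0.34 ± 0.23 for the Dnmt3a,3b-labelled line over the parent. It had the sign of the brighter probe in all 3 means and was not called in any of them. Lox stayed near the background in both labelled lines, with means of 0.07 ± 0.12 for Dnmt1 and 0.21 ± 0.01 for Dnmt3a,3b that were not called.

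Fibronectin was measured by 3 probes and was not called in any comparison. The probe spotted 10 times, A_51_P100856, gave 0.63 and -0.15 in 27G5 cells, and 0.57 and 0.12 in 27H10 cells for Dicer-null over wild type, with a mean of 0.29 ± 0.07. Its values differed with the dye orientation: in the Dnmt3a,3b-labelled line over the parent, the arrays numbered 1 gave 1.22 and 0.55 and the arrays numbered 2 gave -0.46 and -0.31. The SD over the 10 spots of 1 array was only 0.037 to 0.069, so the difference between orientations was larger than the spread within an array. The other Fn1 probes gave means between -0.08 and 0.27 and moved in the same way with the dyes.

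Thrombospondin-1 was lower in Dicer-null cells at all 3 probes. The brightest, A_52_P363951, gave -2.38 and -2.53 in 27G5 cells, and -1.96 and -1.92 in 27H10 cells (mean -2.20 ± 0.36). The probes A_52_P337086 and A_52_P337092, both shown above, gave -1.30 ± 0.16 and -0.92 ± 0.09. The 12 values were all negative, from -2.53 to -0.67, and the order of the probes was the same in both clones.

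In the Dnmt1-labelled line over the parent, the 3 Thbs1 probes had means of 0.68 ± 0.20, 0.37 ± 0.04 and 0.23 ± 0.03, of which the last was not called. In the Dnmt3a,3b-labelled line the means were 1.00 ± 0.03, 0.76 ± 0.11 and 0.50 ± 0.02, all called. The single arrays were less even than the clone means: at A_52_P337086 the Dnmt3a,3b-labelled line gave 1.32 and 0.04 in 27G5 cells, and 1.21 and 0.46 in 27H10 cells, the lower value each time on the array numbered 2. With the arrays numbered 2 alone, that mean was 0.25 and was not called. Relative to wild type the brightest probe summed to -1.52 ± 0.16 in the Dnmt1-labelled and -1.20 ± 0.40 in the Dnmt3a,3b-labelled line.

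Periostin was lower in Dicer-null cells and near the background in both labelled lines. Its probe A_51_P489192 gave -0.87, -0.82, -0.97 and -0.95 for Dicer-null over wild type. It was well above background on 0 of 4 arrays in Dicer-null cells, against 4 of 4 in wild-type cells, so it was at least 1.86-fold lower. In the labelled lines and in their parents it was not well above background on any array (0 of 4 for each line), and the means of -0.03 and 0.02 have no direction. A second probe that RefSeq assigns to Postn carries another name on the chip, was outside the members and was dim.

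Prss23 had the largest ratio of the 14 passing member probes. At A_52_P679105 it gave -5.85 and -5.20 in 27G5 cells, and -5.49 and -5.28 in 27H10 cells for Dicer-null over wild type, with a mean of -5.46 ± 0.10. The Dnmt1-labelled line over the parent gave 1.46 and 1.56 in 27G5 cells, and 0.92 and 1.52 in 27H10 cells (mean 1.36 ± 0.20). The Dnmt3a,3b-labelled line gave 1.67 and 2.56 in 27G5 cells, and 2.04 and 2.43 in 27H10 cells (mean 2.17 ± 0.09). All 12 arrays had it well above background in both channels.

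Relative to wild type, Prss23 summed to -4.09 ± 0.11 in the Dnmt1-labelled line and -3.28 ± 0.19 in the Dnmt3a,3b-labelled line, so both labelled lines lay above the Dicer-null cells and far below wild type. The Dnmt3a,3b-labelled line was higher than the Dnmt1-labelled line by 0.60 (clone 27G5) and 1.02 (clone 27H10), a difference that was not called. No member probe was called between the labelled lines, and neither was any other probe on the array (0% of 28818 in either direction in limma, with 282 probes at an unadjusted p under 0.05). These 282 are far fewer than a share of 0.05 of all probes, which would be found with no difference at all. Both ratios of a clone share the Dicer-null parent RNA, and the main fit took them as independent. The lack of calls therefore does not show that the lines are alike. The second Prss23 probe, A_51_P283818, did not pass the filter and was well above background on 2 of 4 arrays in wild-type cells alone. Its mean of -0.30 for Dicer-null over wild type gives no firm bound, since on the arrays numbered 1 neither RNA was well above background.

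**Figure D3:**
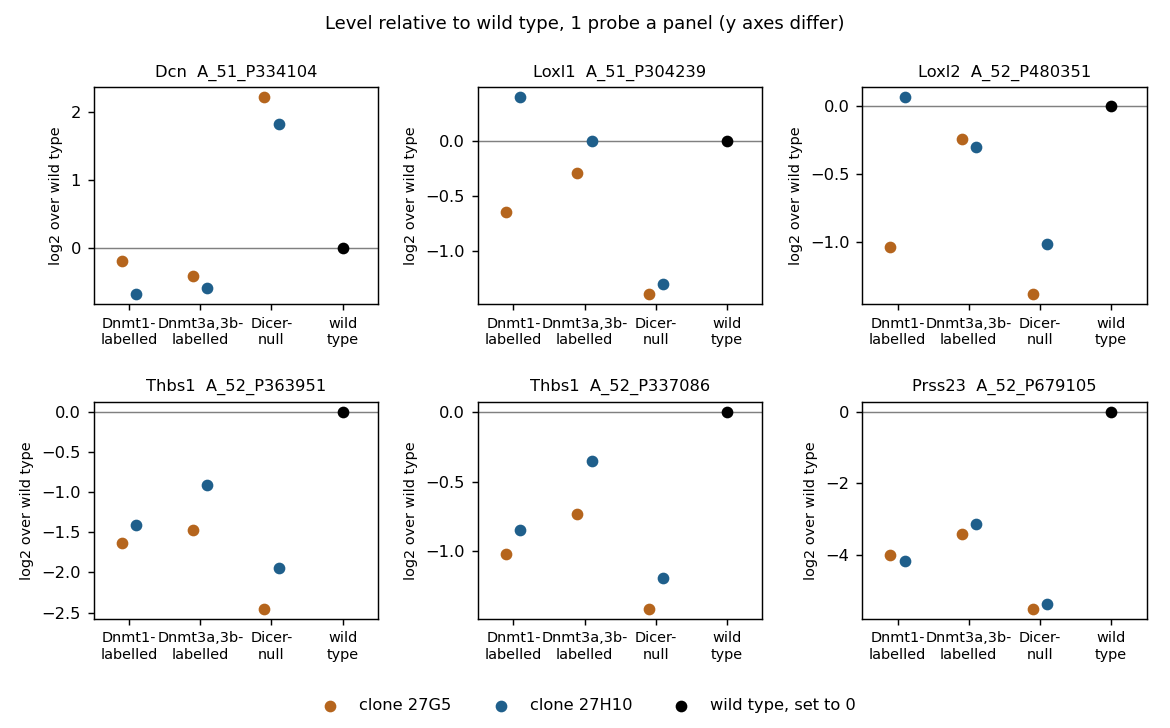
Log2 level relative to wild type (set to 0) of 6 member probes in the Dnmt1-labelled line, the Dnmt3a,3b-labelled line and Dicer-null cells, 1 point a clone; the labelled lines are sums of 2 ratios of the same clone, and the y axes differ between panels. Dcn is at 1.82 and 2.22 in Dicer-null cells and below 0 in both labelled lines, while Prss23 is at -5.39 and -5.52 in Dicer-null cells and between -4.17 and -3.15 in the labelled lines.

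Among the genes whose 6 ratios lay nearest to those of Dcn, by the root mean squared difference over the 2 clones and 3 comparisons, were Ucma at 0.36, Nsg2 at 0.37, Aass at 0.54 and Rtkn at 0.61. Ucma is a secreted cartilage matrix protein, Nsg2 is a gene of neurons and Aass is a lysine-degrading enzyme. Each of these genes was above 1.3 in both clones for Dicer-null over wild type and below -1.5 in both clones for both labelled lines over the parents. No gene came as near to Prss23: the nearest were Tagln at 1.19, Lgals1 at 1.20, Aif1l at 1.31, Mogat2 at 1.31 and Pmp22 at 1.36. This measure depends on the size of the ratios, and Prss23 had the lowest of all 28818 probes for Dicer-null over wild type. Pearson r over the 6 ratios was 0.999 for Tagln, 0.993 for Lgals1 and 0.995 for Aif1l, Mogat2 and Pmp22. For the genes named beside Dcn it was 0.978 to 0.995. All these genes were picked as nearest over the same 6 ratios, so a high r is no evidence of a shared course. In the Dnmt1-labelled line over the parent, Tagln was at 0.30 (27G5) and 0.28 (27H10), and Prss23 at 1.51 and 1.22. The likeness was computed over 15540 named genes and 6 ratios that share RNAs, and no test was made.

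A further 8 lists of other matrix and TGF-beta genes, each gene by its brightest probe, set the members beside their pathway. Over all 15540 genes with a passing probe, the median was 0.00 for Dicer-null over wild type and 0.03 for each labelled line over the parent. For Dicer-null over wild type 21.8% of genes were called higher and 22.1% lower, for the Dnmt1-labelled line 13.9% and 10.4%, and for the Dnmt3a,3b-labelled line 12.5% and 9.58%. The lists, like the members, were drawn up with earlier results of these data known. Genes given beyond the 2 with the largest called ratio of a list were picked after their values were seen.

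Of 6 other small leucine-rich proteoglycans that passed, Ogn (osteoglycin) and Nyx (nyctalopin) were called. Ogn was at least 1.57-fold higher in Dicer-null than in wild-type cells, with a signal well above background on 4 of 4 arrays in Dicer-null cells, against 0 of 4 in wild-type cells. It was at least 1.42-fold lower in the Dnmt1-labelled line (0 of 4 arrays) than in the parent (4 of 4), and at -0.69 ± 0.30 in the Dnmt3a,3b-labelled line over the parent, the signs of Dcn. Its fitted ratio ran over the alternatives from 0.59 to 3.46 for Dicer-null over wild type, from -2.54 to -0.37 for the Dnmt1-labelled and from -2.78 to -0.48 for the Dnmt3a,3b-labelled line. The Ogn call for Dicer-null over wild type was lost without clone 27G5 (adjusted p = 0.0665) and without 27H10 (adjusted p = 0.161; limma over all probes), as was that for the Dnmt3a,3b-labelled line (adjusted p = 0.103 and 0.246 in limma), and that for the Dnmt1-labelled line was lost without 27H10 (adjusted p = 0.247 in limma). With the errors of shared RNAs modelled none of the 3 Ogn calls was made (adjusted p = 0.0667, 0.0996 and 0.0774 in limma). Nyx was called for Dicer-null over wild type alone, at -0.24 ± 0.01 with its other probe at 0.096, and not without 27G5, without 27H10 or with shared RNAs modelled (adjusted p = 0.262, 0.235 and 0.306 in limma).

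Of 16 other collagen-modifying enzymes, 3 were called higher and 5 lower in Dicer-null than in wild-type cells, and the list median was -0.10. The lowest were Bmp1, the protease that removes the procollagen C-propeptide, at -2.73 ± 0.07 (adjusted p = 7.96e-05 in limma) and Serpinh1, the collagen chaperone, at -2.22 ± 0.18. Both were higher in the labelled lines over the parents: Bmp1 at 1.68 ± 0.12 in the Dnmt1-labelled and 2.11 ± 0.07 in the Dnmt3a,3b-labelled line, and Serpinh1 at 1.61 ± 0.19 and 1.66 ± 0.47. The second Bmp1 probe had the same signs with smaller values, -0.70, 0.44 and 0.81. Pcolce2, an enhancer of Bmp1, went the other way, at 1.13 for Dicer-null over wild type and at -1.23 and -1.06 in the Dnmt1- and Dnmt3a,3b-labelled lines over the parents, the signs of Dcn.

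The collagens differed between the comparisons. In Dicer-null cells 6 of 12 were called lower and 1 higher than in wild-type cells, led by Col1a1 at -4.09 ± 0.13 (its other probes from -1.67 to 0.01) and Col1a2 at -2.34 ± 0.09. For the Dnmt1-labelled line over the parent, Col11a1 was called higher, at 0.62, and Col5a3 and Col1a1 lower, at -0.74 and -0.53. In the Dnmt3a,3b-labelled line over the parent only Col5a3 was called, at -1.02 ± 0.51, a call lost on leaving out clone 27G5 or clone 27H10 (adjusted p = 0.183 and 0.0615 in limma). In the Dnmt1-labelled line the Col5a3 call was likewise lost without 27G5 and without 27H10 (adjusted p = 0.233 and 0.0559), and that of Col11a1 without 27G5 (adjusted p = 0.0527; limma). Neither Col1a1 nor Col1a2 was called higher in a labelled line, where Loxl1, Bmp1 and Serpinh1 were.

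Among 16 genes of elastic fibres and microfibrils, the fibres on which Loxl1 acts, 3 were called higher and 5 lower in Dicer-null cells, with a median of -0.19. The lowest were Mfap2 at -2.22 ± 0.02 (its other probe at -0.30) and Efemp1 at -2.19 ± 0.62. Ltbp3 was among those called higher, at 0.23, but its other probe had the opposite sign, at -1.50. Fbln5, which ties Loxl1 to elastin, was called higher in all 3 comparisons, at 0.72 for Dicer-null over wild type, 2.65 ± 0.42 in the Dnmt1-labelled and 2.13 ± 0.20 in the Dnmt3a,3b-labelled line over the parent. Mfap4 was lower in the labelled lines, at -0.89 ± 0.10 for Dnmt1 and -0.74 ± 0.25 for Dnmt3a,3b. With the errors of shared RNAs modelled neither Mfap4 call was made (adjusted p = 0.177 and 0.243 in limma).

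Of 15 other matricellular genes, 3 were called higher and 5 lower in Dicer-null than in wild-type cells, with a median of -0.39. Ccn4 was at -2.75 ± 0.04 and Thbs4, a relative of Thbs1, at -2.56 ± 0.17 (its other probe at -1.14), while Sparcl1 and Sparc were higher, at 2.21 and 0.75. Spp1 was also called higher, with a spot saturated on 4 of 4 arrays in Dicer-null cells and 2 of 4 in wild-type cells, so its ratio is not given. In the Dnmt3a,3b-labelled line over the parent Ccn4 was at 1.68 ± 0.24 and Tnc at 0.63 ± 0.19, the 2 called higher, and 4 were called lower. Tnc was well above background on 4 of 4 arrays in that line, against 1 of 4 in the parent. Its ratio there ran from 0.50 to 2.01 over the alternatives. With the errors of shared RNAs modelled this Tnc call was not made (adjusted p = 0.0977 in limma). Ccn4 was the 1 gene called higher in the Dnmt1-labelled line, at 0.66 ± 0.23, and 5 were called lower, among them Tgfbi at -0.62 ± 0.35. Without clone 27G5 neither Ccn4 nor Tgfbi was called there (adjusted p = 0.0600 and 0.0768 in limma).

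All 3 TGF-beta ligands were called lower in Dicer-null cells than in wild-type cells: Tgfb2 was at -1.66 ± 0.06, Tgfb3 at -1.28 ± 0.07 and Tgfb1 at -1.08. Of the 14 genes of this list 6 were called lower and 2 higher there, and the median was -0.02. Tgfb3 was called higher in both labelled lines, at 0.62 for Dnmt1 and 0.79 ± 0.13 for Dnmt3a,3b, and Skil, a repressor of the pathway, lower, at -0.66 ± 0.06 and -0.64. Of the 14 genes, 2 were called higher and 1 lower in the Dnmt1-labelled line, and 3 higher and 2 lower in the Dnmt3a,3b-labelled line. With the errors of shared RNAs modelled the Skil call in the Dnmt1-labelled line was not made (adjusted p = 0.0998 in limma).

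Matrix receptors had a median of 0.11 for Dicer-null over wild type, with 4 of 16 called higher and 3 lower. Cd44, the hyaluronan receptor, was at -1.57 ± 0.06 and the collagen receptor Ddr2 at 1.37 ± 0.29. In both labelled lines 3 receptors were called higher and none lower (0 of 16), among them Cd47, a receptor of thrombospondin-1, at 1.21 ± 0.07 for Dnmt1 and 1.13 ± 0.14 for Dnmt3a,3b (its other 3 probes from -0.20 to 0.71), and Itga5, the alpha subunit of the fibronectin receptor, at 1.12 ± 0.75 and 1.27 ± 0.13. No receptor was called in the Dnmt3a,3b-labelled line when clone 27G5 or clone 27H10 was left out (0 in both).

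Matrix proteases and their inhibitors had the lowest median of the 8 lists for Dicer-null over wild type, -0.68, and 13 of 18 were called lower and 3 higher. The inhibitor Timp2 was at -2.73 ± 0.17 and the protease Adamts1 at -2.42 ± 0.17 (its other probe at -0.75), while Prss35, Htra1 and Mmp11 were higher, at 2.13, 1.67 and 0.54. In the Dnmt1-labelled line over the parent 7 were called higher and none lower (0 of 18), with Htra1 at 1.24 ± 0.42 and Mmp11 at 0.67 ± 0.44. In the Dnmt3a,3b-labelled line 6 were called higher and none lower (0 of 18), with Mmp9 at 0.90 ± 0.04 and Mmp11 at 0.77 ± 0.01. Leaving out clone 27G5 or clone 27H10 removed all calls of the 18 in the Dnmt3a,3b-labelled line (0 in both).

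**Figure D4:**
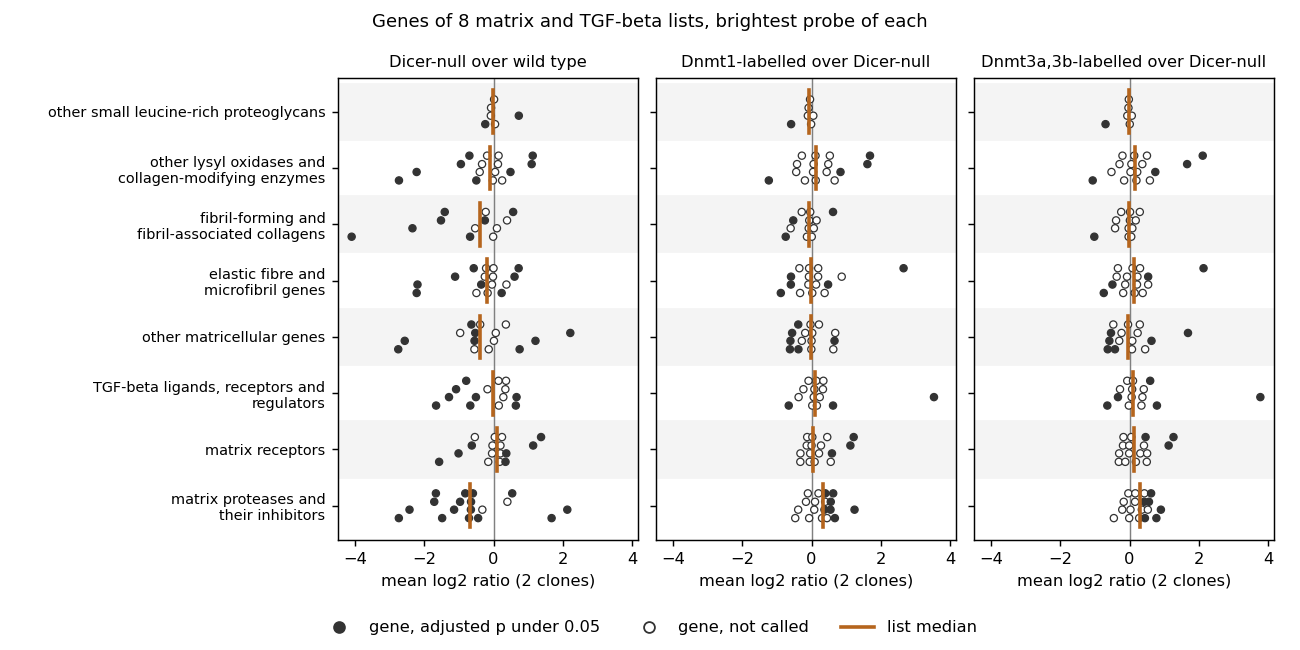
Mean log2 ratio over 2 clones (x axes) of the genes of 8 matrix and TGF-beta lists (rows) in the 3 comparisons; filled points are genes called at an adjusted p under 0.05 and bars are list medians. The protease list has medians of -0.68, 0.34 and 0.32.

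Across the 3 comparisons 45 results of named list genes were called, and 22 of them were called without clone 27G5 and also without clone 27H10. These were 14 of 16 for Dicer-null over wild type, 6 of 15 for the Dnmt1-labelled and 2 of 14 for the Dnmt3a,3b-labelled line. Bmp1 was among the 2 in the last. With the errors of shared RNAs modelled, 23 of the 45 were called, 13 of 16 for Dicer-null over wild type, 4 of 15 for the Dnmt1-labelled and 6 of 14 for the Dnmt3a,3b-labelled line.

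Markers of other cells were followed in the same comparisons. Over all genes, 21.8% were called higher and 22.1% lower for Dicer-null over wild type. The shares were 13.9% and 10.4% for the Dnmt1-labelled line, and 12.5% and 9.58% for the Dnmt3a,3b-labelled line. Of 15 fibroblast markers that passed, 9 were called lower and 2 higher in Dicer-null than in wild-type cells, with medians of -1.18 (27G5) and -1.04 (27H10). Col1a1, Col1a2, Col3a1 and Fbln1 stand in this list and in the matrix lists. Of the fibroblast markers, Tagln was at -4.20 and Prrx2 at -2.45, Twist2 and Col3a1 were well above background on 0 of the 4 arrays with wild-type RNA in Dicer-null cells, and Vim was higher, at 1.39. In the labelled lines over the parents the fibroblast list had a median of 0.03 for Dnmt1 and 0.05 for Dnmt3a,3b. For Dnmt1 4 were called higher and 2 lower, and for Dnmt3a,3b 3 higher and 0 lower.

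The trophoblast markers had medians of -0.71 (27G5) and -0.65 (27H10) for Dicer-null over wild type, with 7 of 12 called lower and 1 higher. In the Dnmt1-labelled line over the parent 8 of 12 were called higher (medians 1.58 for 27G5 and 1.41 for 27H10) and in the Dnmt3a,3b-labelled line 9 of 12 (medians 1.36 for 27G5 and 1.60 for 27H10). Markers of primitive and parietal endoderm were lower in Dicer-null cells in 7 of 13 and higher in 1. Over the parents 5 were higher in each labelled line, with 1 lower for Dnmt1 and 0 lower for Dnmt3a,3b. Pluripotency markers, which define the labelled ES cells, were higher in Dicer-null cells in 6 of 9 and lower in none (0). Over the parents 4 were called higher for Dnmt1 and 3 for Dnmt3a,3b, with 0 lower in each line. Pou5f1 was well above background on 4 of 4 arrays in each group. The part of these markers in the ratios of the matrix genes was not tested, and in RNA from whole cultures fewer cells of a type and less RNA per cell cannot be told apart.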

How the data were processed

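The authors deposited, per the file headers, Agilent scanner output with spot and background intensities, a log10 ratio of red over green and flags, made with Feature Extraction 9.5.1.1 (arrays of the labelled lines) or 9.1.3.1 (arrays with wild-type RNA). The deposited series table holds ratios on the log2 scale of the same arrays and served as an alternative. Other steps of the authors are not given in the sources used here.

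Intensities were corrected with normexp (offset 50), normalised by loess within arrays and turned to 1 direction in limma 3.58.1 (R 4.3.3, statmod 1.5.0), and 2 dye-swapped arrays were averaged, which gave 6 ratios of 2 clones. The offset shrinks the ratios of dim probes. One linear model with 3 residual degrees of freedom gave p-values adjusted by Benjamini-Hochberg over 28818 probes, and a gene was called at 0.05. These p-values cover the spread between 2 clones only. In the fits that leave out 1 clone they cannot cover that spread in the comparison concerned. The fit was also run on simulated data, and the outcome is not reported here.

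The members and lists were chosen with earlier results of these data known. Named list genes were the 2 called genes with the largest ratio of each list and comparison, and for Dcn and Prss23 the 5 genes of nearest ratios. Positions are on build mm7 and gene names were updated through RefSeq GRCm38.p6. No per-sample column was left out. Clones were not paired across comparisons: deviations of the clones correlated at 0.353 between the labelled lines and at -0.061 and -0.133 with Dicer-null over wild type. Promoter and protein sequences were not used here. Some genes that these rules select are not reported here.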

Additional observations from a re-analysis of the deposited data

Results flagged for a closer look

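The ratios of the clones had opposite signs over all 4 arrays at 2 of the 14 member probes that passed the filter on dim probes. Bgn A_52_P162486 in the Dnmt3a,3b-labelled line over the Dicer-null parent was at 0.093 in clone 27G5 and -0.017 in clone 27H10, a difference of 0.11 on the log2 scale. Neither RNA was well above background on the 27G5 arrays, and the 27H10 arrays gave -0.009 and -0.024, so no direction can be read for Bgn. Loxl2 A_51_P275949 in the Dnmt1-labelled line over the parent was at -0.16 in clone 27G5 and 0.54 in clone 27H10, a difference of -0.70. In neither case was the difference tested, since each clone gave 1 ratio, and slide and clone cannot be told apart.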

How the results depend on the processing

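All 21 called values of member probes kept their sign under every alternative run. Of all probes, 11459, 6577 and 6331 were called for Dicer-null over wild type, the Dnmt1-labelled and the Dnmt3a,3b-labelled line over the parent. Modelling the errors of shared RNAs gave 2584, 707 and 586, and 1 probe per gene 6749, 3577 and 3110, where fewer features were tested. Without 1 clone the counts were 4240 to 4708, 3398 to 7154 and 23 to 352. Arrays numbered 1 alone gave 9681 for the Dnmt3a,3b-labelled line. With clone and slide as a replicate block they were 13075, 8815 and 8644. Between the labelled lines 0 probes were called in limma under each setting. Member calls were 9, 5 and 7, and with the errors of shared RNAs modelled 6, 2 and 2. With probes above background on all 12 arrays, 4 of 8 member probes were called for Dicer-null over wild type and 4 of 8 for the Dnmt3a,3b-labelled line. No cause of these shifts was tested. The number of clones and signal near background limit the precision.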
